A study of Mus musculus with 15 samples.

Results

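Acetylcholine receptors and acetylcholinesterase were followed in the cortex of the senescence-prone mouse strain SAMP8 and its resistant control strain SAMR1. The set was fixed by gene symbol: the nicotinic subunit genes Chrna3, Chrna4, Chrna5, Chrna7 and Chrnb2, the muscarinic receptor genes Chrm1, Chrm2, Chrm3 and Chrm4, and Ache. All array features that carry 1 of these symbols were taken, and each was reported on its own, because features of 1 gene can disagree. Of the 10 genes, 9 had values, on 12 of the 34479 features with values. Both features of Chrna3 were listed with no value on all 15 arrays, as were the second feature of Chrna7 and the second of Chrm3, so Chrna3 was not analysed here.

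Cortex of adult female mice was hybridised to one-colour (Cy3) arrays in 3 groups of 5. The groups were sedentary SAMR1 (replicates 1 to 5), sedentary SAMP8 (replicates 6 to 10) and exercised SAMP8 (replicates 11 to 15). All groups shared the sex, the tissue and the age class, which the labels give only as adult. There was no exercised SAMR1 group, and the sources used here do not give the kind or length of the exercise. SAMP8 is an inbred strain with early memory decline, so a strain difference covers everything in which both strains differ. The labels call the arrays biological replicates without saying whether an array held 1 animal; if material was shared, the p-values measure only the spread between these samples.

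Acetylcholine reaches the cortex mainly through fibres from the basal forebrain and acts on receptors of either of 2 families. Nicotinic receptors are channels built of 5 subunits that open when acetylcholine binds. Muscarinic receptors work through G proteins: Chrm1 and Chrm3 encode receptors that couple to phospholipase C, and Chrm2 and Chrm4 encode receptors that restrain adenylyl cyclase. Acetylcholinesterase, the product of Ache, ends the signal by splitting the transmitter. In the forebrain the products of Chrna4 and Chrnb2 form the main high-affinity nicotinic receptor, into which that of Chrna5 can enter as an accessory subunit, while the product of Chrna7 forms channels by itself.

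The arrays correlated with one another at 0.968 to 0.988 over all features, with 17.5% of the variance on principal component 1. Cortical excitatory neuron markers were present on every array. The mean log2 intensity of the 9 measured genes of that list, among them Slc17a7, Tbr1 and Neurod6, lay between 9.60 and 10.09. Intensity on these arrays had a lower quartile near 6.17 on the log2 scale (6.16 to 6.18), and no detection flags were used. A feature below that quartile is called dim here. Intensities of different features cannot be set against each other, so the values below compare groups within a feature. In bulk tissue, fewer cells of a type and less RNA per cell cannot be told apart.

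The main difference lay between the strains and involved Chrna4 and Chrm2. On the log2 scale, 1 feature of Chrna4 was 1.18 higher in sedentary SAMP8 and the other was 1.16 lower, and the only Chrm2 feature was 0.78 lower. In limma, 3 of the 12 features passed an adjusted p of 0.05, 1 higher and 2 lower, where 2.61% of all features passed (1.49% higher and 1.12% lower). In the same 3 features the 5 SAMP8 and the 5 SAMR1 values did not overlap, which held for 4.41% of all features. The median absolute log2 difference was 0.24 over the 12 features and 0.13 over all features. The members were chosen with earlier results of these data known, so these shares are no test of the set. No feature of the other 7 measured genes passed.

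**Figure D1:**
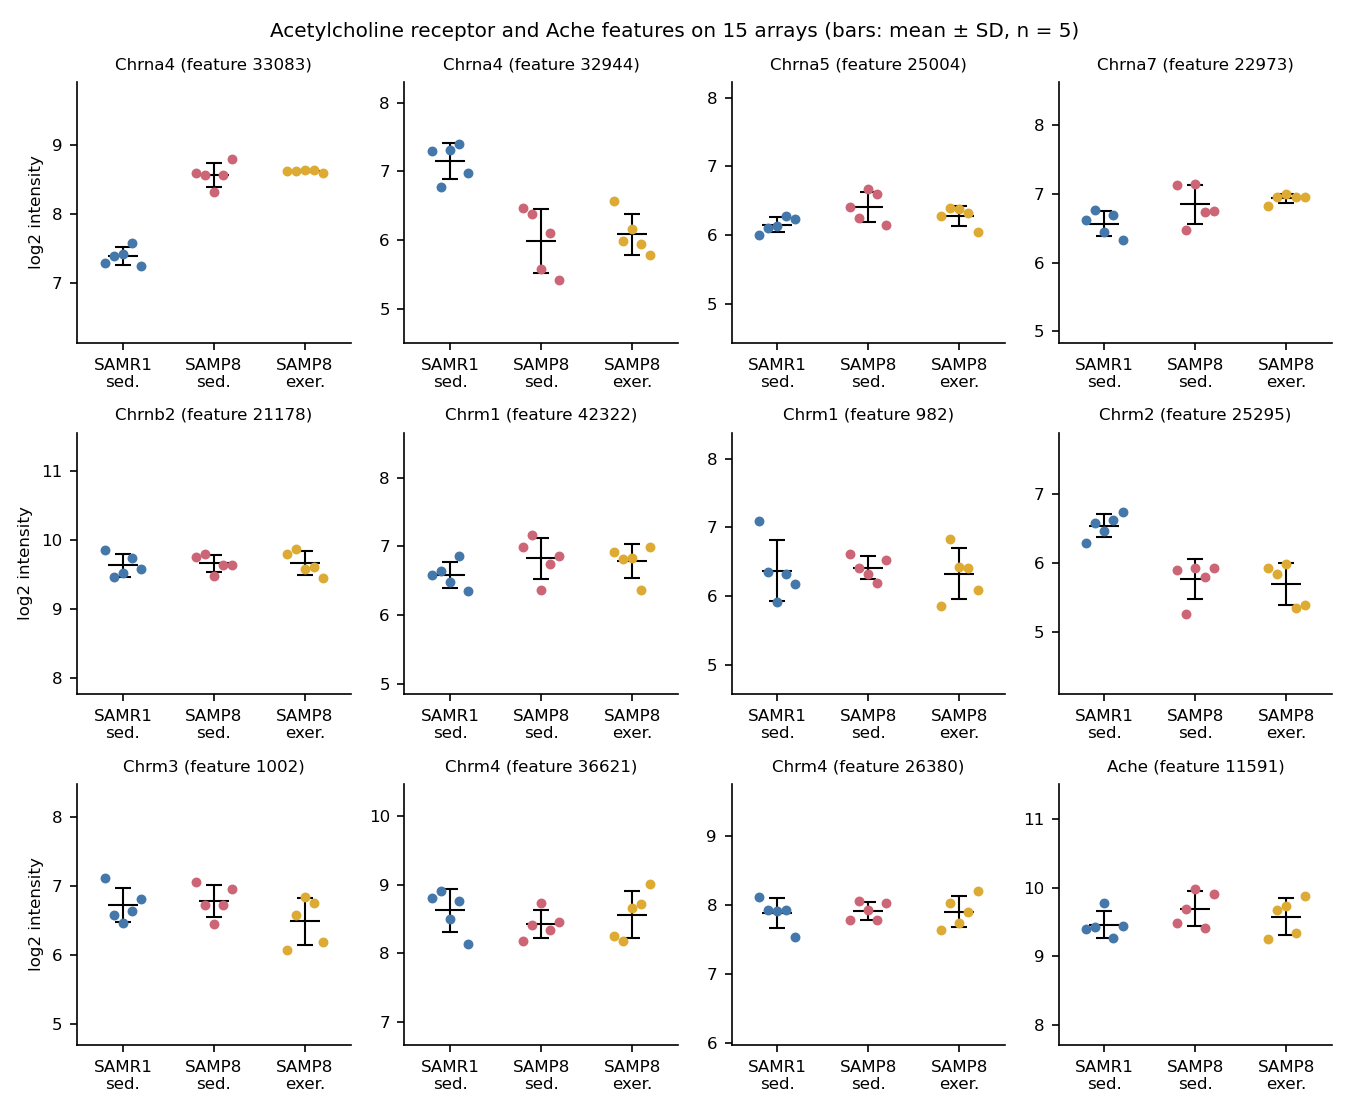
Log2 intensity (vertical axis, each panel spanning the same range of log2 units) of the 12 features in sedentary SAMR1, sedentary SAMP8 and exercised SAMP8 cortex; points are arrays, bars are mean ± SD over 5 arrays. SAMP8 arrays lie above SAMR1 on Chrna4 feature 33083 and below it on Chrna4 feature 32944 and on Chrm2, and the sedentary groups overlap in the other 9 panels.

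Chrna4 encodes the ligand-binding partner of the main cortical nicotinic receptor. On feature 33083 the SAMR1 log2 intensities were 7.29, 7.38, 7.42, 7.58 and 7.25 on replicates 1 to 5. Sedentary SAMP8 gave 8.59, 8.57, 8.32, 8.57 and 8.80 on replicates 6 to 10. All SAMP8 values lay above all SAMR1 values, and no array was dim. The difference was 1.18 ± 0.09 (SE; 95% interval 0.99 to 1.38), which is 2.27-fold (limma adjusted p = 1.23e-06). Only 0.664% of features had a larger absolute difference.

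The second Chrna4 feature, 32944, ran the other way. Its log2 intensities were 7.29, 6.77, 7.32, 7.39 and 6.97 in SAMR1. In sedentary SAMP8 they were 6.46, 6.38, 5.58, 6.11 and 5.42. The groups did not overlap, and 3 of the 5 sedentary SAMP8 arrays were dim, so the size of this fall rests partly on values near an unknown floor. The fall was 1.16 ± 0.21 (SE; 95% interval -1.61 to -0.71), or 2.23-fold (limma adjusted p = 0.00527). In 22 alternative settings, which include leaving out each array in turn, both features passed in every one. The difference ran from 1.12 to 1.25 for feature 33083 and from -1.28 to -1.02 for feature 32944.

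The platform annotation lists both Chrna4 features under the same transcript record. The sources used here do not say where along the transcript each one lies. To ask whether the 2 features of a gene changed unequally, the within-array difference between each further feature of a gene and its brightest feature was fitted for all genes with more than 1 feature. The change of feature 32944 minus that of feature 33083 was -2.34 ± 0.22 (SE; 95% interval -2.81 to -1.88; limma adjusted p = 2.01e-05). It ranked 13 by p among 11567 such pairs, of which 1.51% passed. In 10 pairs both features passed with opposite signs, and Chrna4 was 1 of the 10 genes concerned. Averaging the features gave a Chrna4 difference of 0.01 ± 0.12 (limma adjusted p = 0.982), so a mean over features shows neither change.

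**Figure D2:**
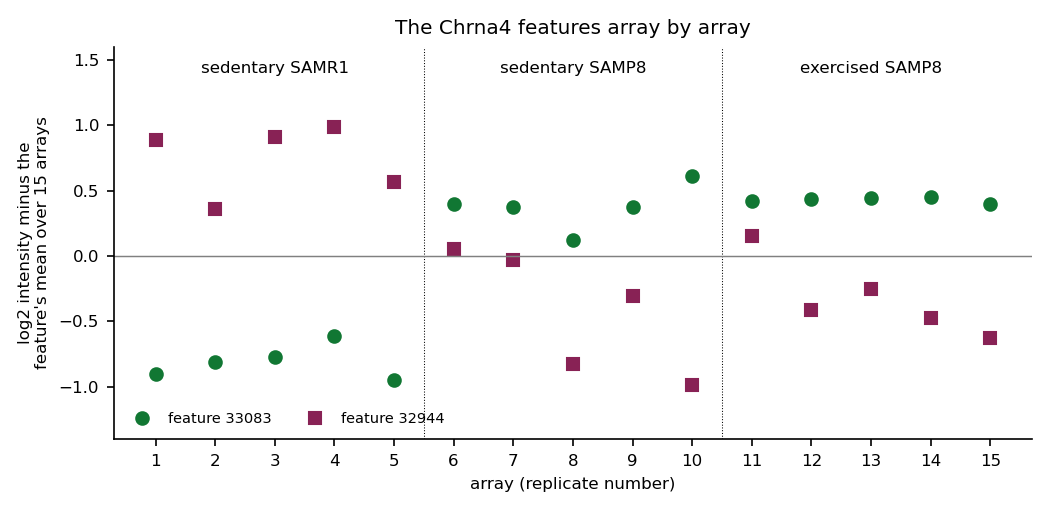
Log2 intensity of each Chrna4 feature minus its own mean over 15 arrays (vertical axis) on every array (horizontal axis, replicate numbers, dotted lines between groups); circles are feature 33083 and squares feature 32944. In SAMR1 feature 33083 lies between -0.95 and -0.61 and feature 32944 between 0.36 and 0.99, while in sedentary SAMP8 they lie between 0.12 and 0.61 and between -0.99 and 0.05.

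Array values were partly tied: on SAMR1 replicate 1 both Chrna4 features had the same intensity, which 32 features shared on that array, and 89.6% of features there shared their value with at least 1 other. Among the nearest measured genes in the RefSeq gene order (GRCm38.p6), Arfgap1 and Col20a1 on one side and Eef1a2 on the other did not pass between the sedentary strains (adjusted p of 0.388 or more for their 5 features). Ppdpf, the second gene on that other side, was 0.63 ± 0.11 lower in sedentary SAMP8 (limma adjusted p = 0.00526) and 0.73 ± 0.11 lower in exercised SAMP8 against SAMR1 (0.00152). Dnajc5, a synaptic vesicle chaperone gene with 14 measured genes between it and Chrna4, was chosen after its values were seen. It is another of the genes with opposite features, at -0.71 (limma adjusted p = 0.00406) and 0.62 (0.00796). A further Dnajc5 feature, 32914, gave -0.11 (0.670).

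Chrm2 encodes an inhibitory muscarinic receptor that includes the presynaptic autoreceptor of cortical cholinergic endings. Its feature, 25295, had log2 intensities of 6.29, 6.57, 6.46, 6.63 and 6.73 in SAMR1. Sedentary SAMP8 gave 5.90, 5.25, 5.93, 5.79 and 5.93. Every SAMP8 value was dim and no SAMR1 value was, and the groups did not overlap. The fall was 0.78 ± 0.16 on the log2 scale (SE; 95% interval -1.11 to -0.44), or 1.71-fold (limma adjusted p = 0.0134). It held in the 21 alternatives in which the feature was fitted, at -0.84 to -0.65 and adjusted p of 0.00885 to 0.0433. The alternative without the dimmest 30% of features leaves Chrm2 out. Of its neighbours in gene order, Fam180a, Mtpn and Ptn did not pass in this comparison, and neither did Dgki (-0.76 and 0.07 on its 2 features, adjusted p of 0.144 and 0.840). The dimmer Dgki feature did pass in 2 of 21 alternatives, the fit of the 2 groups alone (adjusted p = 0.0395) and the fit without exercised replicate 13 (0.0267).

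The promoters of the genes that passed are shown as RefSeq lists them (GRCm38.p6). Each window covers the 250 bases before the transcript start of the promoter table, which need not be the outer end of the gene, and carries in capitals the GC box (GGGCGG) and the CCAAT box (CCAAT), searched on both strands, with no match overlapping another in these windows. The Chrna4 window is chr2:181039178-181039427 on the minus strand and that of Chrm2 is chr6:36387834-36388083 on the plus strand. By the span of the RefSeq gene table, the Chrna4 window lies wholly inside the gene and begins 4152 bases from its 5′ end, so it precedes an internal start. The last 93 bases of the Chrm2 window lie inside the span of that gene.
Chrna4: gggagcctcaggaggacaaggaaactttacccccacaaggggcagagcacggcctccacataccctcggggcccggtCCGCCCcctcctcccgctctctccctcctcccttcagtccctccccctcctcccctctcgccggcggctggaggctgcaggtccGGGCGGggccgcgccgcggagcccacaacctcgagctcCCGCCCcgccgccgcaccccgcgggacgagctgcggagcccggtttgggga
Chrm2: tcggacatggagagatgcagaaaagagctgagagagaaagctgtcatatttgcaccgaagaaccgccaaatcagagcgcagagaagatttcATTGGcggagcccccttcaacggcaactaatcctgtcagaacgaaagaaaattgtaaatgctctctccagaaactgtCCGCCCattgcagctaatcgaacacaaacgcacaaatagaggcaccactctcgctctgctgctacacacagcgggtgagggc
The Chrna4 window held 74.4% G or C and 3 GC boxes, and that of Chrm2 held 50.0%, 1 GC box and 1 CCAAT box. The median of all 32851 promoters was 52.4%. Promoters were listed for 9 of the 10 genes, 10 windows in all, of which 7 held a GC box, against 32.7% of all promoters, and 2 held a CCAAT box, against 33.8%. Both sequences are of the reference genome, and SAMP8 and SAMR1 sequence was not analysed here.

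The remaining nicotinic subunits differed less between the sedentary strains. Chrna5 was 0.26 ± 0.11 higher (feature 25004; SAMR1 6.00 to 6.28, sedentary SAMP8 6.15 to 6.67; limma adjusted p = 0.288), and it was dim on 3 of 5 SAMR1 arrays. Chrna7 was 0.28 ± 0.12 higher (feature 22973; 6.33 to 6.76 against 6.48 to 7.14; adjusted p = 0.333). Both had an unadjusted p under 0.05, as did 14.0% of all features, and both overlapped between groups. Chrnb2, the beta partner of Chrna4, gave 0.03 ± 0.10 (feature 21178; 9.46 to 9.86 against 9.48 to 9.80; adjusted p = 0.940). The 95% interval for Chrnb2 was -0.19 to 0.25.

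The other muscarinic receptors overlapped between the sedentary strains as well. Chrm1, the main receptor of this family on cortical pyramidal cells, gave 0.24 ± 0.15 on feature 42322 (limma adjusted p = 0.516) and 0.05 ± 0.20 on feature 982 (0.953). The mean log2 intensities of these features over all arrays were 6.73 and 6.37, and feature 982 was dim on 3 of 15 arrays. Chrm3 gave 0.06 ± 0.17 (0.922). Chrm4, most abundant in the striatum, gave -0.20 ± 0.17 on feature 36621 (0.664) and 0.03 ± 0.12 on feature 26380 (0.952). The changes of the paired features did not differ detectably for Chrm1 (-0.20, 95% interval -0.72 to 0.33; adjusted p = 0.835) or Chrm4 (0.23, -0.07 to 0.53; 0.627). Ache ran from 9.27 to 9.78 in SAMR1 and from 9.41 to 9.97 in sedentary SAMP8, a difference of 0.23 ± 0.15 (95% interval -0.08 to 0.54; adjusted p = 0.526).

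**Figure D3:**
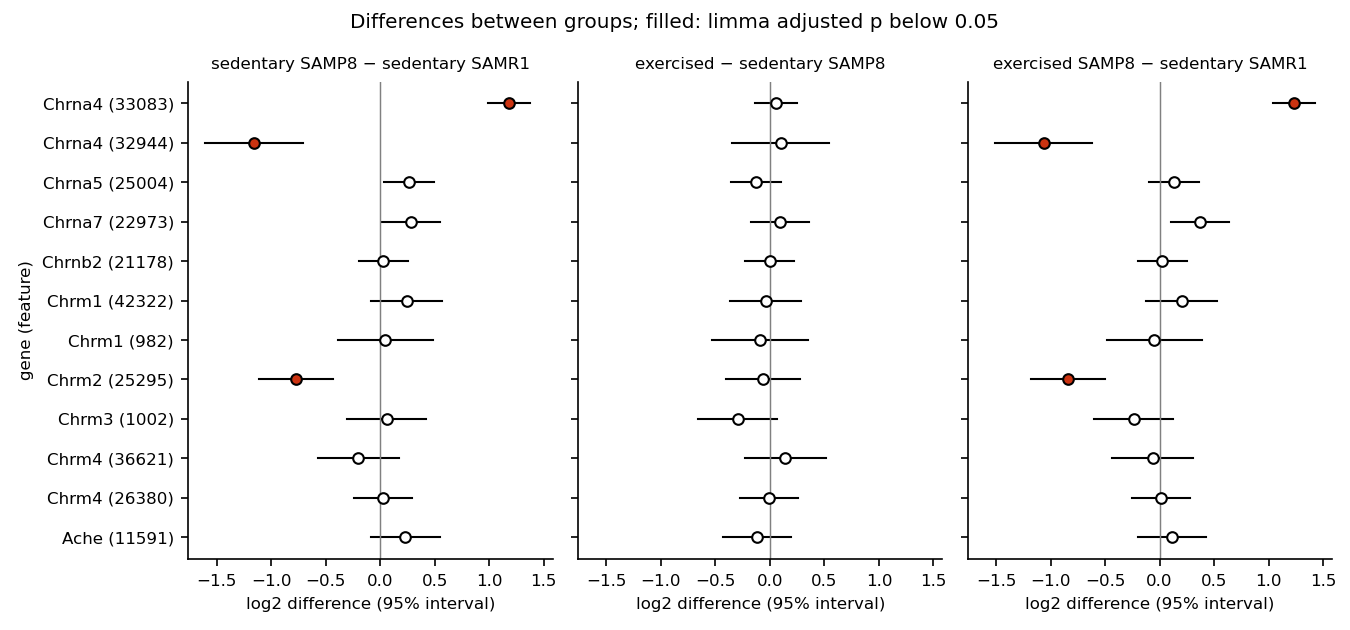
Log2 difference with its 95% interval (horizontal axis) for each of the 12 features (vertical axis) in the 3 comparisons; filled points passed a limma adjusted p of 0.05. Both comparisons with SAMR1 fill the same points, 2 for Chrna4 and 1 for Chrm2, and the comparison of exercised with sedentary SAMP8 fills none.

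The next comparison asked what exercise changed in SAMP8. None of the 12 features passed in limma, and none had an unadjusted p under 0.05. Of all 34479 features 0 passed (0%), while 2289 (6.64%) had an unadjusted p under 0.05. No group pair was free of overlap among the 12 features, against 1.11% of all features. The median absolute log2 difference was 0.09 over the 12 features and 0.11 over all.

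Chrna4 on exercised replicates 11 to 15 stood at 8.62, 8.63, 8.63, 8.64 and 8.59 on feature 33083. On feature 32944 the exercised values were 6.56, 5.99, 6.16, 5.94 and 5.78. Those of feature 33083 lay within the sedentary SAMP8 range, 1 of feature 32944 lay above it, and all lay outside the SAMR1 values. The exercise differences were 0.05 ± 0.09 (95% interval -0.14 to 0.25) and 0.10 ± 0.21 (-0.35 to 0.55). Chrm2 was 5.93, 5.83, 5.98, 5.35 and 5.39 on the exercised arrays, all of them dim. Its difference was -0.06 ± 0.16 (-0.40 to 0.27), with a limma adjusted p of 0.960.

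Among the other features the widest exercise difference was that of Chrm3, whose receptor acts through phospholipase C. It ran from 6.45 to 7.07 in sedentary and from 6.07 to 6.84 in exercised SAMP8, a difference of -0.29 ± 0.17 (95% interval -0.66 to 0.07; limma adjusted p = 0.773). The rest lay between -0.13 for Chrna5 and 0.14 for Chrm4 feature 36621, and Ache gave -0.12 ± 0.15 (-0.43 to 0.20; adjusted p = 0.902).

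Exercised SAMP8 was also set against sedentary SAMR1, which mixes strain and exercise and shares the SAMR1 arrays with the first comparison. The same 3 features passed in limma, where 3.28% of all features did (1.89% higher and 1.39% lower). An unadjusted p under 0.05 was reached by 4 of the 12, against 17.7% of all features. Chrna4 gave 1.24 ± 0.09 on feature 33083 (limma adjusted p = 7.12e-07) and -1.06 ± 0.21 on feature 32944 (0.00949), beside 1.18 and -1.16 in the sedentary comparison. The pair of Chrna4 features again differed, at -2.30 ± 0.22 (adjusted p = 1.96e-05), where 2.33% of pairs passed. Chrm2 gave -0.84 ± 0.16 (0.00687), beside -0.78. The Chrm2 neighbour Dgki gave -0.94 ± 0.24 on its dimmer feature (adjusted p = 0.0468), and this call held in only 7 of 21 alternatives. It was lost without any 1 of the SAMR1 replicates, sedentary replicates 7 to 10 or exercised replicates 12 to 15 and in the fit of those 2 groups alone (adjusted p of 0.0518 to 0.104).

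Chrna7 did not overlap between exercised SAMP8 and SAMR1, as 4 of the 12 features did not, against 5.22% of all features. Its values were 6.63, 6.76, 6.44, 6.69 and 6.33 in SAMR1 and 6.82, 6.95, 7.00, 6.95 and 6.96 in exercised SAMP8. The difference of 0.37 ± 0.12 (95% interval 0.10 to 0.63) did not pass (limma adjusted p = 0.134). Sedentary SAMP8 ran from 6.48 to 7.14 and overlapped both. The other features that did not pass lay between -0.24 for Chrm3 and 0.20 for Chrm1 feature 42322, with Ache at 0.11 ± 0.15 (adjusted p = 0.757).

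Other genes of the cholinergic system were described from lists of receptor subunits, transmitter handling, hydrolysis, receptor partners and muscarinic signalling. Of 10 further receptor subunits measured, 1 rose between the sedentary strains and 0 fell, where 1.49% of all features rose and 1.12% fell. Their median log2 difference was 0.11, against 0.02 over all genes. The riser was Chrna2, a nicotinic subunit of sparse interneurons, at 4.67 to 5.25 in SAMR1 and 5.44 to 5.90 in sedentary SAMP8, a difference of 0.65 ± 0.15 (limma adjusted p = 0.0256). It was dim on all 15 arrays. The call was lost without SAMR1 replicate 1 or 4, or sedentary SAMP8 replicate 6, 8 or 10 (0.56 to 0.64, adjusted p of 0.0596 to 0.0683), and with a trended and robust prior (0.123). Against SAMR1, exercised SAMP8 gave 0.69 ± 0.15 for Chrna2 (0.0168; 0.0756 with that prior).

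Genes that make and carry acetylcholine did not pass with all arrays, where 2.61% of all features did between the sedentary strains. Slc10a4, a vesicular transporter-like protein of cholinergic and monoamine neurons, spanned 7.07 to 8.35 on the SAMR1 arrays. Its span was 8.34 to 9.27 with sedentary and 7.35 to 8.85 with exercised SAMP8, so all groups overlapped. Sedentary SAMP8 was 1.06 ± 0.28 above SAMR1 (limma adjusted p = 0.0687). This difference passed in 4 of 22 alternatives, which were the fits without SAMR1 replicate 2, without exercised replicate 12 or 14 and without the dimmest 30% of features (adjusted p of 0.0382 to 0.0478). Exercised SAMP8 was 0.70 ± 0.28 below sedentary SAMP8 (0.713). Slc5a7, the high-affinity choline transporter, gave 0.81 ± 0.26 (0.138; 0.0467 without exercised replicate 12) and -0.58 ± 0.26 (0.737) in the same comparisons. Chat, which makes acetylcholine, gave 0.03 ± 0.13 between the sedentary strains (0.947).

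Markers of cholinergic neurons, whose cell bodies lie largely outside the cortex, were read beside these genes. Slc5a7, Chat and Slc18a3 stand in both lists, and Slc18a3 was dim on 14 of 15 arrays. The mean log2 intensity over the 7 measured genes was 6.42 to 6.74 for SAMR1. It was 6.69 to 7.17 for sedentary and 6.41 to 7.17 for exercised SAMP8. In sedentary SAMP8 6 of the 7 genes had a positive difference on the brightest feature (median 0.42, against 0.02 over all genes), and 0 passed there. Of all 27 features of the list 1 passed, where 2.61% of all features on the arrays did. It belongs to the nerve growth factor receptor gene Ngfr, named after its value was seen. It was not the brightest Ngfr feature, and gave 0.92 ± 0.23 (feature 34302, limma adjusted p = 0.0435). This call, near the threshold, was not followed through the alternative fits. The 9 measured striatal markers, among them Drd1, Drd2 and Ppp1r1b, ran from 9.72 to 10.60, 10.14 to 10.57 and 9.37 to 10.26 in the same order of groups. In the exercise comparison all 9 were negative (median -0.50, against 0.02 over all genes), and 0 passed, as over all features.

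Markers of other cells and regions also passed between the sedentary strains, where 2.61% of all features did. Those named here were chosen after their values were seen, and their calls were not followed through the alternative fits. The astrocyte gene Gfap was higher on its brightest feature by 0.72 ± 0.14 (limma adjusted p = 0.0101). Of the 33 astrocyte features 8 passed, all of Gfap, so they repeat 1 gene. On the brightest features of the 6 astrocyte genes, 4 were positive and 2 negative, and only Gfap passed. Their median was 0.09, against 0.02 over all genes. The astrocyte list mean ran from 11.38 to 11.70 in SAMR1 and from 11.64 to 11.86 in sedentary SAMP8. The thalamic marker Zic1 was higher by 0.97 ± 0.24 (0.0498), the only pass among 25 thalamic features. Thalamic list means were 8.33 to 8.52 in SAMR1 and 8.48 to 8.89 in sedentary SAMP8. Aqp1, a water channel of the choroid plexus, was higher by 1.01 ± 0.25 (0.0456), the only pass among 17 choroid plexus features. All 6 choroid plexus genes had a positive difference (median 0.77, against 0.02 over all genes), with list means of 6.08 to 8.03 and 6.82 to 8.37. Among the 20 oligodendrocyte features 1 passed. It belongs to the myelin gene Mbp but is not its brightest feature, and it was lower by 0.81 ± 0.13 (0.00227). Oligodendrocyte list means were 12.31 to 12.58 in SAMR1 and 11.95 to 12.72 in sedentary SAMP8. The part of any of these lists in the values of Chrna4, Chrm2, Slc10a4, Slc5a7 and Chrm4 was not tested.

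**Figure D4:**
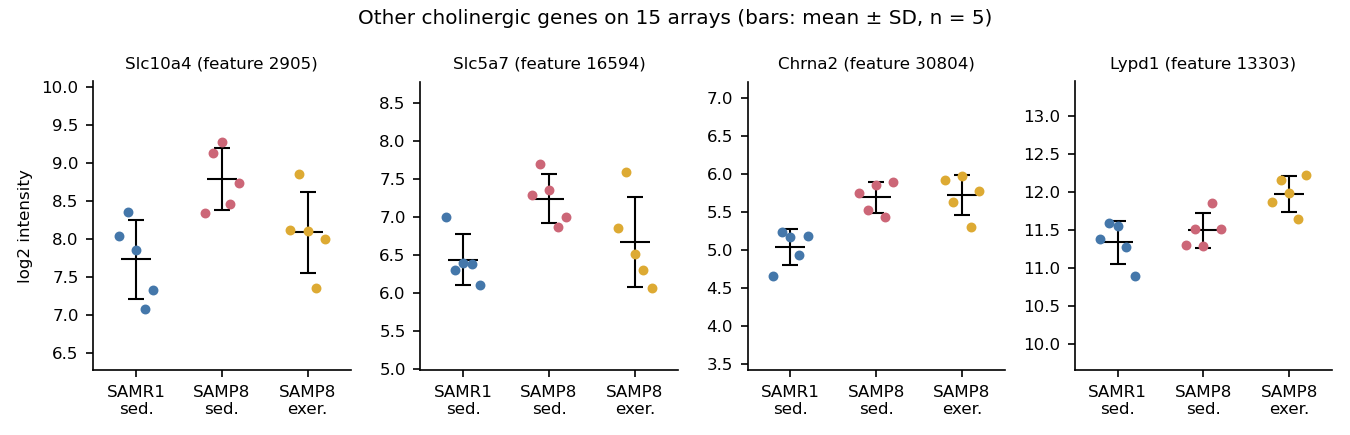
Log2 intensity (vertical axis) of the brightest feature of Slc10a4, Slc5a7, Chrna2 and Lypd1 in the 3 groups; points are arrays, bars are mean ± SD over 5 arrays. Slc10a4 averages 7.73, 8.79 and 8.08 from left to right, and Lypd1 averages 11.34, 11.49 and 11.97.

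The mRNAs of proteins that bind or assemble nicotinic receptors were measured for 9 genes. Between the sedentary strains 0 of them passed, where 2.61% of all features did. Lypd1, a membrane-anchored protein of the Ly6 family that dampens nicotinic receptors, spanned 10.89 to 11.60 with SAMR1, 11.29 to 11.85 with sedentary and 11.64 to 12.22 with exercised SAMP8. It was 0.64 ± 0.15 higher in exercised SAMP8 than in SAMR1 (limma adjusted p = 0.0321), and 0.48 ± 0.15 higher than in sedentary SAMP8 (0.646). The call against SAMR1 was lost without SAMR1 replicate 1, 4 or 5 or exercised replicate 11, 12, 13 or 15, and in the fit of those 2 groups alone (0.52 to 0.66, adjusted p of 0.0540 to 0.0852).

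The hydrolysis and signalling lists held no gene that passed in any comparison. Over all features, 2.61% passed between the sedentary strains, 0% with exercise and 3.28% for exercised SAMP8 against SAMR1. Bche, the second cholinesterase, gave -0.66 ± 0.25 between the sedentary strains (limma adjusted p = 0.245) and was dim on 14 of 15 arrays, and Prima1, which anchors acetylcholinesterase in neuronal membranes, gave 0.06 ± 0.16 (0.919). Of 13 genes of muscarinic signalling, 10 were negative, with a median of -0.14 against 0.02 over all genes. Among them Gnaq, the G protein subunit that activates phospholipase C, gave -0.42 ± 0.31 (0.596), and Prkca, a protein kinase C gene, gave 0.21 ± 0.10 (0.381). The Gnaq value rested on 1 array: SAMR1 replicate 5 had a log2 intensity of 14.2, and without it the difference was -0.04 (adjusted p = 0.957). The other Gnaq feature gave -0.12 ± 0.11 (0.691).

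Patterns over the 15 arrays were compared as the root mean square difference of log2 values after each feature was centred on its own mean. Closest to Chrna4 feature 33083 were features of Uhmk1 (0.13), Vmn2r29 (0.16) and Tmem167b (0.17), against an SD of 0.60 of that feature over the arrays. Closest to Chrna4 feature 32944 were Car2, Fcgr2b and Suclg2 (each 0.25, against an SD of 0.64). Closest to Chrm2 were Tgs1 (0.20), Bet1l (0.21) and another feature of Fcgr2b (0.22, against 0.46). They were chosen for this likeness, so their own strain differences are no separate result.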

How the data were processed

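The deposited table gave Cy3 intensity on a linear scale, 1 column for each of 15 arrays. Per the submitters' processing notes the authors used limma; version, background correction, normalization, slides, scan dates and genome build are unstated in these sources, so no batch could be tested. Array medians were 207.8 to 208.8, so the values were taken as normalized between arrays. Of 45220 features 34479 had values, 27968 of them with 1 gene symbol (16401 genes) from the platform annotation. All 10 Entrez identifiers of the members were found in RefSeq.

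Intensity was taken as log2 with no pseudocount. Each feature was fitted with limma 3.58.1 (R 4.3.3; lmFit and eBayes) over 3 groups, two-sided, with Benjamini-Hochberg adjustment over all 34479 features, or over 11567 feature pairs. Figures used Python 3.11.15 and matplotlib 3.10.9. No depth exists for arrays; their number limits the precision. The fits were tested on simulated data with 200 changed features. With fewer true changes the Benjamini-Hochberg cut-off is stricter, so the shares below need not hold for exercise, where 0 features passed. For exercised against sedentary SAMP8 the fits recovered 2% of log2 changes of 0.25, 36% of 0.5, 80% of 1 and 98% of 2. For sedentary SAMP8 against SAMR1 they recovered 0% of 0.25, 20% of 0.5, 82% of 1 and 98% of 2. The shares for exercised SAMP8 against SAMR1 were 0%, 36%, 70% and 98%. Changes of 0.5 or less were thus mostly missed in all 3 comparisons.

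The members and gene lists were chosen with earlier results of these data known. Dnajc5, Ngfr, Gfap, Zic1 and Aqp1 were named after their values were seen, outside the rule that follows. Named were all features of the members; list genes that passed, otherwise the 2 with the smallest p per list; the 3 features most like each member feature that passed; the 2 measured genes on each side of members that passed; and the first markers of a list described. Alternatives were quantile normalization, median centring, a filter on dim features, array weights, a trended and robust prior, fits of 2 groups or of single-symbol features, gene means, and leaving out each array. For named genes other than the members these alternatives were chosen after seeing the data. The calls of Dnajc5, Ngfr, Gfap, Zic1, Aqp1 and Mbp were not followed through them.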

Additional observations from a re-analysis of the deposited data

Results flagged for a closer look

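Single arrays stood apart from the rest of their group on 2 features. Chrm2 was 5.25 on sedentary SAMP8 replicate 7, against 5.79 on the next lowest array of that group. Without that array the strain difference of Chrm2 was -0.65 (limma adjusted p = 0.0274). Chrm1 feature 42322 was 6.36 on exercised SAMP8 replicate 14, against 6.82 on the next lowest array, and without it the exercise difference was 0.07 (adjusted p = 0.997). The search covered 36 groups of 5 arrays, in which chance alone gives about 1.8 such values.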

How the results depend on the processing

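The count of 3 passing features among the 12 was the same when any 1 array was left out, in both comparisons with SAMR1, and it was 2 without the dimmest 30% of features, which removes Chrm2. The exercise count among the 12 was 0 in all alternatives run. Over all features, leaving out 1 array gave 663 to 919 calls between the sedentary strains (901 with all arrays), 753 to 1357 between exercised SAMP8 and SAMR1 (1131; the lowest without SAMR1 replicate 5), and 0 to 4 between exercised and sedentary SAMP8 (0; the 4 without exercised replicate 12). The mean of both Chrna4 features did not pass, since the features moved in opposite directions (0.01 in the sedentary comparison and 0.09, adjusted p = 0.778, for exercised SAMP8 against SAMR1). Differences that did not pass changed sign in 59 cases, and the value in the alternative fit was then within 0.14 of 0. The value with all arrays could lie further out, as for Dgki feature 35640 between exercised and sedentary SAMP8 (-0.19). No paired analysis was possible because the groups share no replicate numbers. Dim features, Chrm2 and Chrna2 above all, limit how well sizes are known.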
